A study of Mus musculus with 32 samples.

Results

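The fibrillar collagen genes followed here are Col1a1, Col1a2, Col3a1, Col5a1, Col5a2, Col5a3 and Col11a1, taken by symbol from each of 4 deposited tables. They are 7 of 22609 genes in the tables of cultured cells and of tumours in Rag1-/- mice, and 7 of 25277 genes in the tables of tumours in C57BL/6 mice. RNA was sequenced from E0771, a mouse mammary carcinoma cell line, in a study of the collagen receptor DDR1 in mammary tumour growth. The cultured cells were 3 libraries labelled wild-type for Ddr1 (titled E0771-P, EV and Ctrl, called wild-type libraries 1, 2 and 3 here) and 2 of knockout cells (titled 3-6 and 3-7, called knockout libraries 1 and 2). Tumours of wild-type or knockout cells in Rag1-/- mice, which lack mature T and B cells, gave 5 libraries each. In C57BL/6 mice, 4 wild-type and 5 knockout tumours are titled day 4. The series' design text describes tumours moved from Rag1-/- to C57BL/6 hosts. The last table, titled day 6, holds 4 C57BL/6 tumours given control IgG and 4 given an antibody whose name points to the human DDR1 ectodomain, and its labels state no Ddr1 genotype. Whether the libraries of a group stem from different cultures or mice is not labelled, nor is the hosts' age, and each p-value below therefore refers to library-to-library spread alone.

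Fibrillar collagens are secreted as procollagens of 3 chains wound around each other, trimmed outside the cell and packed into the cross-linked fibrils that give connective tissue its tensile strength. Type I collagen normally combines pro-alpha1(I), from Col1a1, with pro-alpha2(I), from Col1a2, and type III is built from Col3a1 chains alone. Type V chains, from Col5a1, Col5a2 and Col5a3, and type XI chains, including that of Col11a1, are minor partners that set fibril number and diameter. In solid tumours most fibrillar collagen is commonly made by fibroblasts, although carcinoma cells can express some chains. Fibrillar collagen is also the ligand of DDR1.

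On mouse build GRCm38 the genes lie at chr11:94936224-94953042 (Col1a1), chr6:4504814-4541544 (Col1a2), chr1:45311538-45349706 (Col3a1), chr2:27886425-28039514 (Col5a1), chr1:45374321-45503282 (Col5a2), chr9:20770050-20815067 (Col5a3) and chr3:114030540-114220718 (Col11a1). Col5a2 and Col5a3 are on the minus strand. None overlaps another protein-coding gene in the annotation. Of the 7, 5 matched an entry in the RefSeq promoter table (build GRCm38.p6), and Col1a1 and Col5a2 did not. Sequence upstream of the RefSeq start is shown for a pair of genes near 0 or low in cultured cells, Col1a2 and Col3a1. It is also shown for the pair with the highest levels there in wild-type cells, Col5a1 and Col5a3. Bases are 5′ to 3′ on the gene's strand, and capitals mark matches on either strand to GGGCGG (the GC box), CCAAT or TATAAA. For Col1a2 only the 123 bases outside annotated exons are printed, at -248 to -126 from the RefSeq start. They lie within the annotated span of Col1a2 given above.
Col1a2, chr6:4505370-4505492, plus strand: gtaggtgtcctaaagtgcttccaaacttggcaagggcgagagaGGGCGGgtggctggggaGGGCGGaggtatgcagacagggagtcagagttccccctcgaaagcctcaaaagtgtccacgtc
Col3a1, chr1:45311288-45311537, plus strand: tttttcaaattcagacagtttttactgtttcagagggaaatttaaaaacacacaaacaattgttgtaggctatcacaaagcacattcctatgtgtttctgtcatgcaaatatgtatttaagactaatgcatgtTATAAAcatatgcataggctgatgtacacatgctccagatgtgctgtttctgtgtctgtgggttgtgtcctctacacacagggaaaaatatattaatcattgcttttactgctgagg
Col5a1, chr2:27886175-27886424, plus strand: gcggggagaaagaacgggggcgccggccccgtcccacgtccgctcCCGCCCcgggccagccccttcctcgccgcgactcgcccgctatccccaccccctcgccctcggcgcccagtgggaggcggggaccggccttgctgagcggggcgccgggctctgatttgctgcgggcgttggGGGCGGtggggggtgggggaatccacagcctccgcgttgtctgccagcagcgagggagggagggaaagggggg
Col5a3, chr9:20815068-20815317, minus strand: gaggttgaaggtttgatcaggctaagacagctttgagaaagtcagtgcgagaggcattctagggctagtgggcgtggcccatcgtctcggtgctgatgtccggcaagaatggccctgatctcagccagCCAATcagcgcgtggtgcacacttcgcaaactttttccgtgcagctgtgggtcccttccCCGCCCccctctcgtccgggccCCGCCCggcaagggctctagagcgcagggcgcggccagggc
Counting the base before the RefSeq start as -1, Col5a3 holds GC boxes at -63 to -58 and -41 to -36 with a CCAAT match at -122 to -118. Col5a1 holds GC boxes at -205 to -200 and -73 to -68. Col1a2 holds GC boxes at -205 to -200 and -188 to -183, and a CCAAT match at -109 to -105, which lies in an annotated exon and is not printed. Col3a1 holds none of the GC boxes and has TATAAA at -117 to -112. Among 32851 promoter windows of 250 bases, 32.7% held the GC box, 33.8% CCAAT and 12.4% TATAAA. A match is a description of the letters and not a binding site, and GC boxes stood upstream of genes at high level in culture and of Col1a2 alike.

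The targeted gene separated the genotypes wherever the labels give one. Ddr1 in culture was at 178, 171 and 213 RPM (reads of a gene in 1000000 reads of its library) in wild-type libraries 1 to 3 and at 26.7 and 19.0 RPM in the knockout libraries. In Rag1-/- hosts it lay between 174 and 189 RPM in wild-type and between 33.3 and 42.3 RPM in knockout tumours, and at day 4 between 132 and 175 RPM and between 27.9 and 49.7 RPM. At day 6, in a separately normalized table, it was 15.9 to 22.1 RPM under IgG and 18.5 to 28.5 RPM under the antibody, below the wild-type levels of the other tables. Depth ran from 18967300 to 39732635 reads per library over the 32 libraries. Cultured cells had almost none of 8 of 10 fibroblast markers, each averaging under 1 RPM, with Thy1 and Lum at 0 reads. Pdgfra and Pdgfrb made up nearly all of the summed list there, at 63.0 to 109 RPM and 50.8 to 82.3 RPM. Of 6 luminal epithelial markers, Krt8 was at 204 to 238 RPM in wild-type and 160 to 182 RPM in knockout cells. Elf3 was at 28.3 to 31.1 RPM in wild-type and 14.5 to 28.4 RPM in knockout cells. Epcam averaged under 1 RPM in wild-type cells, and Krt18, Krt19 and Cdh1 did so in both genotypes.

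In cultured E0771 cells, fibrillar collagen RNA was chiefly that of 2 type V chains. Col5a1, which encodes the type V chain common to most heterotrimers, was at 820.5, 1069 and 1181 RPM in wild-type libraries 1 to 3. Col5a3, the least widely expressed type V chain, was at 920.3, 609 and 522 RPM in the same order. Library 1 was thus lowest in Col5a1 and highest in Col5a3. Scaled to mRNA length, the 2 genes averaged 122 ± 22.0 and 112 ± 34.2 RPM per kb in wild-type cells (SD, n = 3), with overlapping ranges. Together they made up 95.8 ± 1.96% of the RPM per kb summed over the 7 genes (SD, n = 3), with 93.6% in the lowest and 97.3% in the highest library.

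The other 5 genes were low or nearly unread in wild-type culture, and 4 of them in knockout culture too, the exception being Col1a1. Col1a1 averaged 8.76 ± 4.34 RPM per kb and Col3a1 1.51 ± 0.64 RPM per kb in wild-type cells (SD, n = 3), with no overlap between them or with the type V pair. Col1a2, the usual partner of Col1a1, had 2 reads in wild-type library 1 and 0 reads in the other 4 libraries, where a count of 0 allows up to 0.0917 RPM at most. Such limits take 3 reads and cover counting error only. Col5a2, the usual partner of Col5a1, had 2 to 4 reads in each of the 5 libraries. Col11a1, a type XI chain of cartilage, had 1 read in wild-type libraries 1 and 2 and 0 in the others.

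Col1a1 stood higher in both knockout derivatives, but the difference did not pass the test over all genes. Its wild-type levels were 49.2, 27.7 and 78.9 RPM, and the knockout libraries had 248 and 729.9 RPM. The lower knockout value lay above all wild-type values, and the knockout libraries themselves differed widely. The log2 difference, on log2(normalized count + 1) as throughout, was 3.19 with an SE of 0.54 (limma, 95% interval 1.90 to 4.47, adjusted p = 0.0565). As a share of the 7 genes' RPM per kb, Col1a1 took between 2.0 and 5.52% of each wild-type library, against 12.7 and 32.2% of the knockout pair. The authors' deposited table gives an adjusted p of 4.12e-103 for it, and 3.67% of its genes were under 0.05. With DESeq2 on the recovered reads the adjusted p was 0.000628, and 8.86% of genes passed.

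Col3a1 went the other way on far fewer reads. Its wild-type levels were 4.85, 8.34 and 11.97 RPM, and the knockout libraries had 3.49 and 4.38 RPM. The groups did not overlap, yet wild-type library 1 was close to the knockout pair, and the log2 difference of -0.98 (SE 0.37) had a limma adjusted p of 0.224. Col5a3 was at 1155 and 890.2 RPM in knockout cells, overlapping the wild-type range through library 1 (log2 difference 0.64, SE 0.24, limma adjusted p = 0.225, and 0.00179 in the authors' deposited table). Col5a1 was at 812 and 947 RPM in knockout cells (log2 difference -0.18, SE 0.16, limma adjusted p = 0.596). Of the 4 genes whose mean normalized count reached the minimum of 10, limma called 0, against 0.327% of all genes tested. At an unadjusted p under 0.05 there were 3 of the 4, against 18.8% of all genes, edgeR called 0 (0.21% of all genes) and DESeq2 1. Groups did not overlap for 1 gene higher and 1 lower, where 18.5% and 17.7% of all genes did so.

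Wild-type library 1 decided the limma calls in culture. Without it, in a fit where 2 libraries face 2, limma called 3 of the 4 genes: Col1a1 at 3.22 (adjusted p = 0.0187), Col3a1 at -1.32 (adjusted p = 0.0187) and Col5a3 at 0.88 (adjusted p = 0.0115). The same omission moved the limma count over all genes from 39 of 11911 to 1655 of 11736. Each knockout library is 1 titled derivative of the line, so a difference between derivatives and an effect of the knockout cannot be told apart from these libraries.

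**Figure D1:**
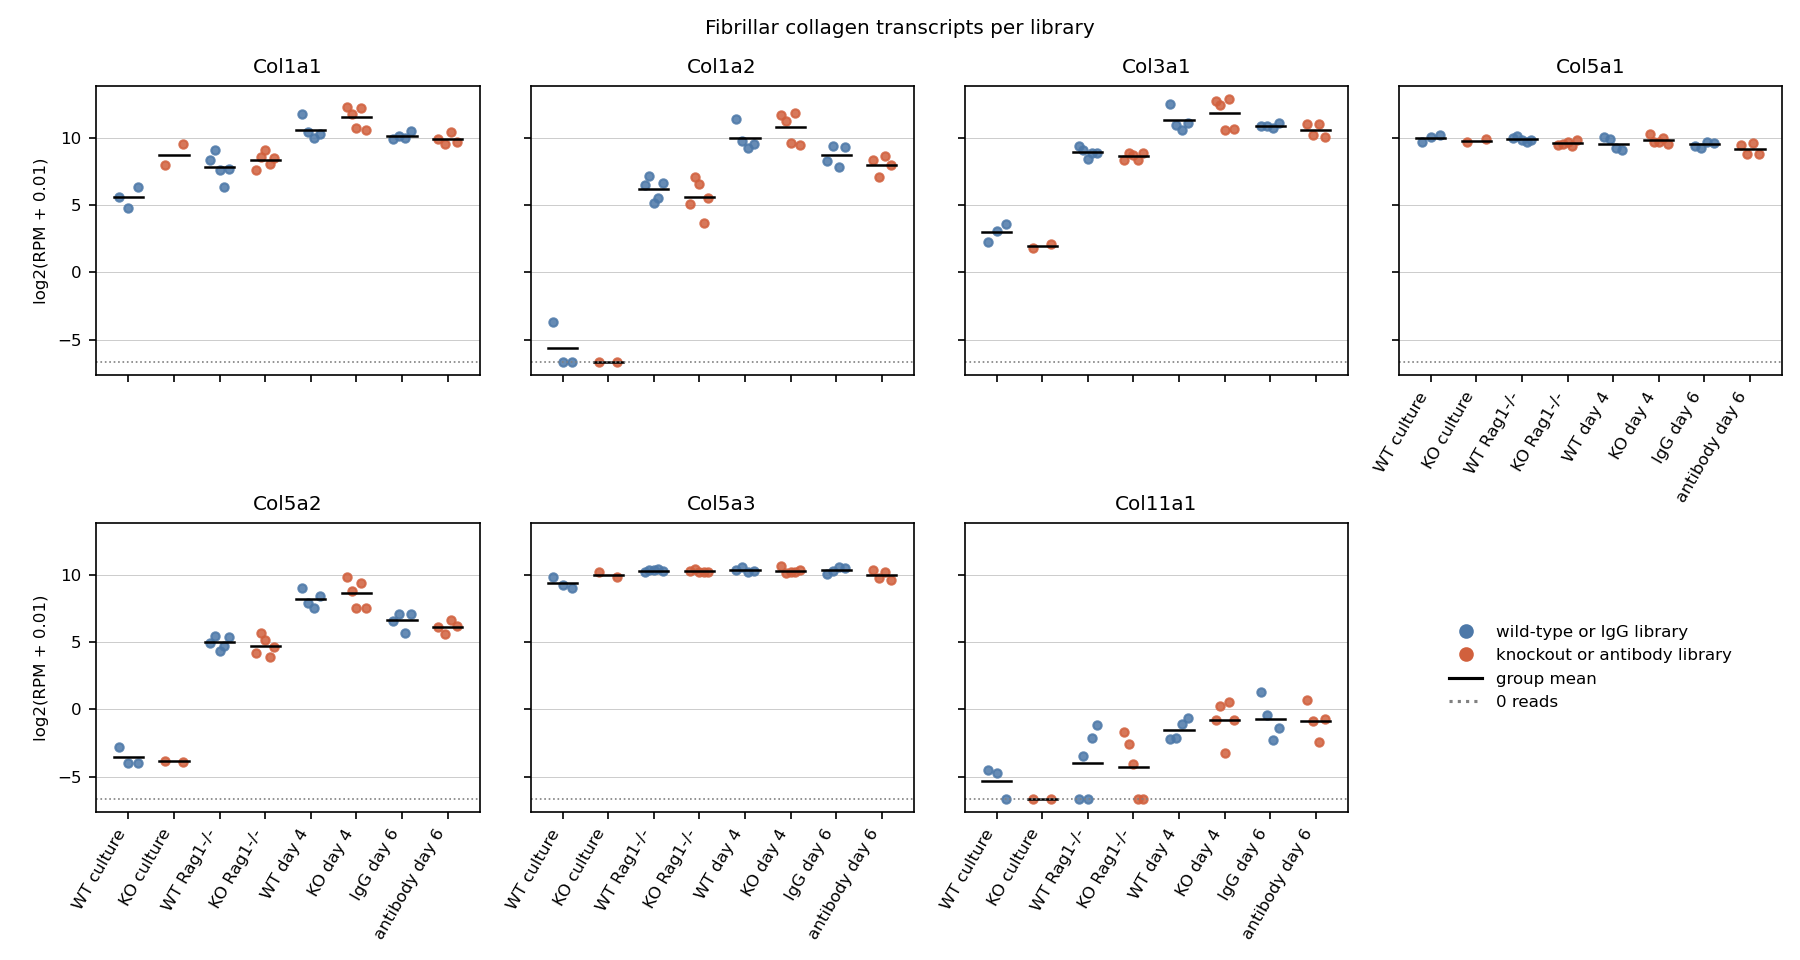
Levels of the 7 fibrillar collagen genes in each of 32 libraries, as log2(RPM + 0.01), with a point per library, a bar at each group's mean of the plotted values and a dotted line at 0 reads. Col5a1 and Col5a3 lie near 10 in every group, while Col1a2, Col3a1 and Col5a2 are far higher in tumours than in cultured cells. The tables were normalized separately, so levels across them are set side by side without a test.

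Tumours in Rag1-/- mice contained RNA of every followed gene except Col11a1 at more than 10 RPM in each library. Col3a1 was at 663, 552, 349, 457 and 473 RPM in wild-type tumours 1 to 5 and at 328, 467, 429, 331 and 473 RPM in knockout tumours 1 to 5. Col1a2 was at 88.0, 144, 36.1, 46.6 and 101 RPM in wild-type and at 32.9, 133, 96.3, 12.3 and 46.5 RPM in knockout tumours. Neither gene separated the genotypes, and Col1a2 spread widely within each. Col5a3 and Col5a1 still led: scaled to length they averaged 207 ± 12.8 and 112 ± 15.6 RPM per kb in wild-type tumours (SD, n = 5), with no overlap. Col3a1 followed at 89.7 ± 21 RPM per kb, with a range that overlapped that of Col5a1. Next came Col1a1 at 45.5 ± 29.5, Col1a2 at 15.6 ± 8.18 and Col5a2 at 4.88 ± 1.46 RPM per kb.

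Col5a1 fell in knockout tumours of Rag1-/- mice. It was at 984, 1142, 886, 797 and 884 RPM in wild-type tumours 1 to 5 and at 703, 752, 818, 669.5 and 896 RPM in knockout tumours 1 to 5. Knockout tumours 1, 2 and 4 were below all 5 wild-type tumours, while knockout tumours 3 and 5 lay within the wild-type range, so the groups overlap. The decrease was 0.32 on the log2 scale (SE 0.09, 95% interval -0.52 to -0.12, limma adjusted p = 0.0229, n = 5 and 5). In the authors' deposited table its adjusted p is 0.0467, and 11.2% of genes there were under 0.05. Col5a1 was the 1 gene called of 6 tested, in a comparison where limma called 22.7% of all genes and 11.4% as lower, and edgeR (22.7% of all genes) and DESeq2 (24.8%) also called it alone of the 6. A share of 1 in 6 is near the background. The call was lost after quantile normalization (adjusted p = 0.0898), without limma's trend (0.0566), and without wild-type tumour 1 (0.0545), wild-type tumour 2 (0.0554), knockout tumour 1 (0.0532) or knockout tumour 4 (0.0655).

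The remaining genes did not pass in Rag1-/- hosts. Col3a1 differed by -0.32 (SE 0.15, limma adjusted p = 0.136) and passed without wild-type tumour 3 (-0.44, limma adjusted p = 0.0345). Col1a2 differed by -0.67 (SE 0.53), Col5a2 by -0.29 (SE 0.28) and Col5a3 by -0.07 (SE 0.06), with limma adjusted p of 0.396, 0.490 and 0.461. The interval for Col5a3, the steadiest of the genes, ran from -0.21 to 0.07. Col1a1 was at 329, 540.1, 196, 81.7 and 201 RPM in wild-type tumours 1 to 5 and at 189, 382, 541, 262 and 351 RPM in knockout tumours 1 to 5 (log2 difference 0.50, SE 0.39, limma adjusted p = 0.388). Col11a1 did not exceed 0.442 RPM and was not tested.

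Summed fibroblast markers were lower in knockout tumours of Rag1-/- hosts, at 435 to 501 RPM against 537 to 673 RPM, with no overlap. Dpt carried most of this, at 178 to 284 RPM in wild-type and 88.5 to 131 RPM in knockout tumours, while Pdgfra lay the other way, at 94.4 to 152 RPM and 149 to 175 RPM. The ranges of Pdgfra and of the other 8 markers overlapped between genotypes. All 10 averaged 1 RPM or more, except Fap in knockout tumours. Their part in the Col5a1 difference was not tested. In bulk RNA, fewer cells of a type and less RNA per cell cannot be told apart. In cultured cells, where Pdgfra and Pdgfrb were the only markers of the list to average 1 RPM or more, Col5a1 was at 812 to 1181 RPM. Those libraries were normalized separately, and which cells gave the Col5a1 RNA of the tumours was not tested.

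The knockout effect on Col1a1 was 0.50 in Rag1-/- tumours and 3.19 in culture on the log2 scale. The difference of these effects, tumours minus culture, was -2.69 (SE 0.67, adjusted p = 0.0862 from limma's estimates) and did not pass. For Col5a3 the difference of effects was -0.71 (SE 0.25, adjusted p = 0.242). Of the 4 genes testable in both, 0 passed where 0.731% of all genes did, and 2 were at an unadjusted p under 0.05, as were 15% of all genes. Without wild-type culture library 1 the adjusted p from limma's estimates was 0.0344 for Col1a1 and 0.00627 for Col5a3, and that omission moved the calls over all genes from 84 of 11490 to 954 of 11400, or 8.37%.

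**Figure D2:**
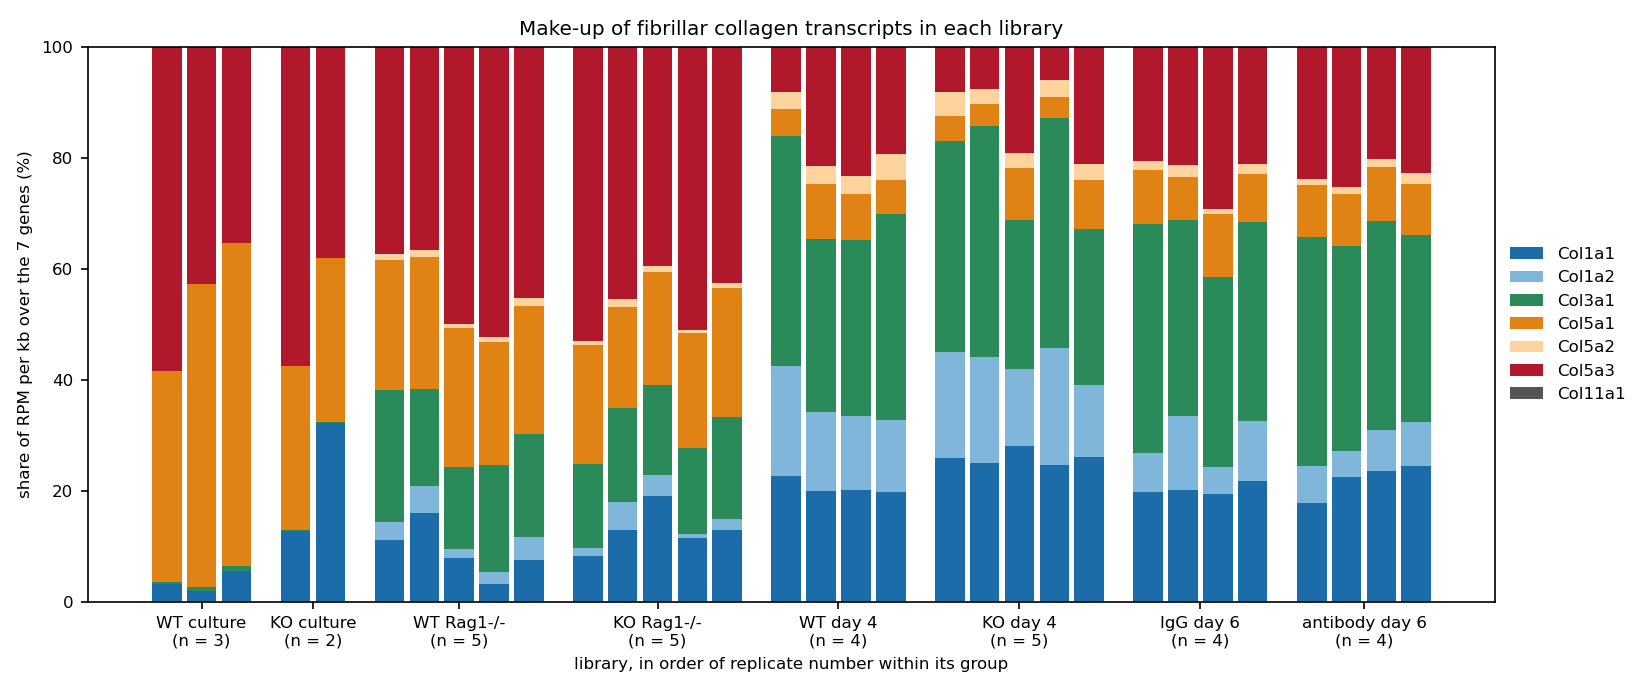
Share of each fibrillar collagen gene in the summed RPM per kb of the 7 genes, 1 bar per library ordered by replicate number within its group. The type V chains Col5a1 and Col5a3 fill 67.6 to 97.3% of the bar in culture and 59.8 to 74.9% in Rag1-/- tumours, and Col1a1, Col1a2 and Col3a1 take the larger part in C57BL/6 tumours.

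Day 4 tumours in C57BL/6 mice held the highest levels of type I and III chains in the series, and their libraries fell far apart within each genotype. Col3a1 was at 5919, 1983, 1480.2 and 2196 RPM in wild-type tumours 1 to 4 and at 6843, 5517, 1541, 7441 and 1567 RPM in knockout tumours 1 to 5. Col1a1 was at 3457, 1352, 1001 and 1239 RPM in wild-type and at 4954, 3538, 1718, 4712 and 1541 RPM in knockout tumours. Wild-type tumour 1 and knockout tumours 1, 2 and 4 were high in both genes. Col1a2 was at 2729, 859, 605 and 737 RPM in wild-type and at 3309, 2432, 764, 3632 and 692 RPM in knockout tumours. Col5a2 was at 513, 241, 179 and 333 RPM in wild-type and at 915, 436, 187, 672 and 188 RPM in knockout tumours. The same 4 tumours led in each of these genes.

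The same 4 tumours also held the most fibroblast marker RNA. Their summed markers were 1264 RPM in wild-type tumour 1 and 1309, 1225 and 1412 RPM in knockout tumours 1, 2 and 4, against 444 to 780.5 RPM in the other 5. All 10 fibroblast markers averaged at least 1 RPM in each genotype. Adipocyte markers were also highest in these 4 tumours, at 234 to 3452 RPM against 2.71 to 102 RPM in the other 5, and so were macrophage markers, at 1535 to 2059 RPM against 708 to 1006 RPM. Skeletal muscle markers were highest in wild-type tumour 3 and knockout tumour 5, at 1212 and 2407 RPM. The part of these markers in the collagen levels was not tested.

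Of the type V chains, Col5a3 did not follow the 4 tumours. It was at 1288, 1494, 1194 and 1249 RPM in wild-type and at 1612, 1094, 1202, 1170.4 and 1286 RPM in knockout tumours, so the groups and the 4 tumours lie within 1 range. Col5a1 was at 1048, 946, 588 and 542 RPM in wild-type and at 1233, 804, 819, 1011 and 738 RPM in knockout tumours. It was highest in 3 of the 4 tumours, over a narrower range. Scaled to length in wild-type tumours, Col3a1 averaged 520.2 ± 366, Col1a1 297 ± 192, Col1a2 230.5 ± 188, Col5a3 213 ± 21.4, Col5a1 92.9 ± 30.2 and Col5a2 47.8 ± 21.9 RPM per kb (SD, n = 4). Col3a1 was above Col1a1 and Col1a1 above Col1a2 in each of the 4 tumours, although their ranges over tumours overlap. Col5a3, at 195 to 244 RPM per kb, lay within the ranges of Col1a1 and Col1a2 and below that of Col3a1, which ran from 266 to 1064 RPM per kb.

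At day 4 the knockout did not move any fibrillar collagen gene past the test. Col1a1 differed by 0.86 (SE 0.44, limma adjusted p = 0.388), Col1a2 by 0.71 (SE 0.59, adjusted p = 0.605) and Col3a1 by 0.51 (SE 0.57, adjusted p = 0.704). Col5a2 differed by 0.37 (SE 0.48), Col5a1 by 0.21 (SE 0.22), Col5a3 by -0.11 (SE 0.13) and Col11a1 by 0.64 (SE 0.71), with limma adjusted p from 0.687 to 0.752. Limma called 0 of 7, beside 0.0354% of all genes, with 0 at an unadjusted p under 0.05 (15% of all genes) and 0 by edgeR (0.0284% of all genes) or DESeq2 (4.95%). The intervals are wide: for Col1a1 -0.11 to 1.83, and for Col1a2 -0.60 to 2.03. Without the 4 tumours high in fibroblast markers, an omission chosen after seeing the data, the differences were -0.01 for Col1a2, -0.27 for Col3a1 and -0.39 for Col5a2, which turned their direction. Most of the omitted tumours were knockout, and all stood highest in these genes. The omission was thus bound to lower the knockout means, whatever the markers. Col11a1 stayed between 0.0963 and 1.47 RPM in all 9 tumours.

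The knockout effects in the 2 hosts were set against each other gene by gene. For Col5a1 the effect in Rag1-/- hosts minus that at day 4 was -0.53 (SE 0.24, adjusted p = 0.259 from limma's estimates), and for Col1a2 it was -1.38 (SE 0.80, adjusted p = 0.356). Of 6 genes, 0 passed where 2.71% of all genes did, and 1 was at an unadjusted p under 0.05, as were 18.4% of all genes. The decrease of Col5a1 in Rag1-/- hosts is therefore not shown to differ from the value at day 4.

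**Figure D3:**
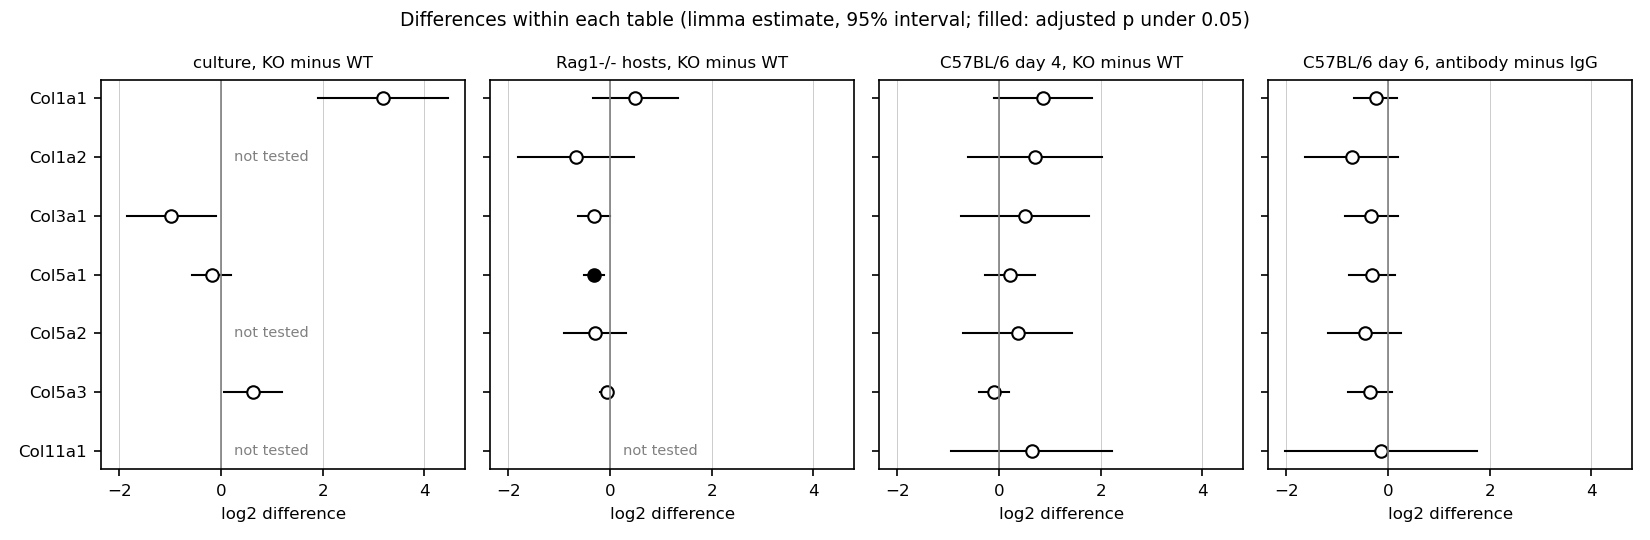
Log2 difference of each gene in each table, knockout minus wild-type or antibody minus IgG, with limma's estimate as a point and its 95% interval as a line. The only filled point, with an adjusted p under 0.05, is Col5a1 in Rag1-/- hosts at -0.32, and genes marked as not tested had a mean normalized count under 10.

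In day 6 tumours each of the 7 followed genes averaged lower with the antibody than with IgG, but none passed the test. The groups overlapped for all 7, where 3.9% of all genes did not overlap. Col1a2 was at 314, 675, 225 and 636 RPM in IgG tumours 1 to 4 and at 323, 138, 389 and 245 RPM in antibody tumours 1 to 4. The difference was -0.71 (SE 0.41, 95% interval -1.63 to 0.20, limma adjusted p = 0.521). Col3a1 was at 1908, 1852, 1656 and 2191 RPM under IgG and at 2042, 1164, 2036 and 1065 RPM under the antibody. Antibody tumours 2 and 4 were below all 4 IgG tumours, and antibody tumours 1 and 3 lay within the IgG range. The difference was -0.33 (SE 0.23, limma adjusted p = 0.560).

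Of the type V chains, Col5a1 and Col5a3 showed the same low pair. Col5a1 was at 675, 611, 831 and 782 RPM under IgG and at 698, 451, 792 and 444 RPM under the antibody (-0.32, SE 0.20, limma adjusted p = 0.529). Col5a3 was at 1039, 1228, 1548 and 1412 RPM under IgG and at 1294, 872, 1198 and 791 RPM under the antibody (-0.35, SE 0.19, limma adjusted p = 0.519). Antibody tumours 2 and 4 were the lowest of the 8 in both genes. Col1a1 was at 977, 1127, 996 and 1409.8 RPM under IgG and at 937, 756, 1356 and 822 RPM under the antibody (-0.25, SE 0.19, limma adjusted p = 0.589). Col5a2 ran from 51.5 to 137 RPM and from 47.8 to 102 RPM (-0.46, SE 0.32, limma adjusted p = 0.555). For Col5a2, antibody tumour 4 was at 72.5 RPM, above antibody tumour 1 at 69.6 RPM. Col11a1 did not exceed 2.43 RPM, with 1 IgG tumour at that level (-0.14, SE 0.84, limma adjusted p = 0.957).

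Limma called 0 of these 7 genes and 0% of all genes, with 0 of the 7 and 8.6% of all genes (1218 of 14155) at an unadjusted p under 0.05. EdgeR called 0 of the 7 and 0% of all genes, and DESeq2 0 of the 7 and 1.18% of all genes. Adipocyte markers were at 514 and 416 RPM in antibody tumours 2 and 4 and at 1.34 to 82.3 RPM in the other 6. Luminal epithelial markers were also highest in that pair, at 460 and 520 RPM against 186 to 258 RPM, and skeletal muscle markers in IgG tumours 1 and 2, at 1106 and 5953 RPM against 6.06 to 361 RPM. Summed fibroblast markers ranged from 492 to 730.5 RPM under IgG and from 489 to 739 RPM under the antibody. Without those 2 antibody tumours, an omission chosen after seeing the data, the difference was 0.08 for Col3a1 and 0.02 for Col5a1. That pair was also the lowest of the day 6 tumours in both genes, so leaving it out had to raise both differences, whatever the markers. The part of these markers in the lower values was not tested.

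The balance between the chains of type I collagen was compared within each tumour table, and no difference passed. Reads of Col1a2 per read of Col1a1 averaged 0.359 ± 0.168 for wild-type tumours of Rag1-/- hosts and 0.176 ± 0.110 for the knockout (SD, n = 5 and 5, two-sided exact permutation p = 0.0635, adjusted p = 0.279). At day 4 the ratio averaged 0.656 ± 0.091 in wild-type (n = 4) and 0.604 ± 0.149 in knockout tumours (n = 5, exact permutation p = 0.524, adjusted p = 0.640). At day 6 it averaged 0.399 ± 0.162 under IgG and 0.278 ± 0.069 under the antibody (SD, n = 4 and 4, exact permutation p = 0.257, adjusted p = 0.354). In culture the ratio of Col1a2 to Col1a1 could not be tested. Col1a2 was at 0 reads in 4 of 5 libraries there, beside 1019 to 26499 reads of Col1a1. A ratio within a library does not depend on how the library was scaled.

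Ratios of the other chains to Col1a1 also did not pass. Col3a1 per Col1a1 was 0.0986, 0.301 and 0.152 in wild-type culture, against 0.0141 and 0.00600 for the knockout, and the groups did not overlap. Col5a1 per Col1a1 was 16.7, 38.6 and 15.0 in wild-type culture, against 3.28 and 1.30 for the knockout, again without overlap. Both had an exact permutation p of 0.2, the smallest that 3 libraries against 2 allow. In Rag1-/- hosts Col3a1 per Col1a1 averaged 2.55 ± 1.77 and 1.27 ± 0.336, and Col5a1 per Col1a1 4.76 ± 2.97 and 2.46 ± 0.825, for wild-type and knockout tumours (n = 5 and 5, exact permutation p = 0.0873 for each, adjusted p = 0.279). Adjusted p-values are over the 11 ratio tests made, and the smallest p possible was 0.00794 in Rag1-/- hosts, 0.0159 at day 4 and 0.0286 at day 6.

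The genes varied together in part. Over 27 tumour libraries, with log2(RPM + 1) centred on each group's mean, Col1a2 and Col5a2 had a Pearson r of 0.93, and 0.97, 0.93 and 0.93 within the Rag1-/- (n = 10), day 4 (n = 9) and day 6 (n = 8) libraries. Col1a1 and Col1a2, the chains of type I collagen, had an r of 0.78 over the 27 libraries and 0.63, 0.99 and 0.77 within the tables. Col5a3 had an r of 0.60 with Col5a1 over the 27 libraries, but -0.39, 0.61 and 0.88 within the tables, and of 0.08 with Col1a1, but -0.45, 0.20 and 0.57, so the sign turned between tables. Its spread around the group means was the smallest of the 6 genes with a mean of 10 or more in all 3 tumour tables, an SD of 0.18, and that of Col1a2 the largest, 0.90. These libraries share tables and tissue make-up, and no p is given.

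Against the summed fibroblast markers, centred in the same way over the 27 libraries, r was 0.93 for Col3a1, 0.78 for Col5a2, 0.72 for Col1a2, 0.71 for Col1a1, 0.49 for Col5a1 and 0.17 for Col5a3. For Col3a1 it was 0.83 within Rag1-/- hosts, 0.98 at day 4 (n = 9) and 0.64 at day 6 (n = 8), and for Col5a3 it was -0.32, 0.05 and 0.64. With summed macrophage markers, r over the 27 libraries was 0.55 for Col1a1, 0.57 for Col1a2 and 0.57 for Col3a1. Within the tables these values varied. At day 4 they were 0.92, 0.93 and 0.94 in the same order, in Rag1-/- hosts 0.61, 0.45 and 0.67, and at day 6 0.13, 0.33 and -0.45. The order differs between tables: in Rag1-/- hosts (n = 10) Col5a1 had 0.75 with the fibroblast markers, above Col1a1 at 0.73, Col1a2 at 0.51 and Col5a2 at 0.44. In wild-type tumours of these hosts Pdgfra, Pdgfrb and Dpt held most of the fibroblast sum, with medians of 123, 186 and 273 RPM. Cultured cells also expressed Pdgfra and Pdgfrb, so the sum is not a measure of fibroblasts alone.

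**Figure D4:**
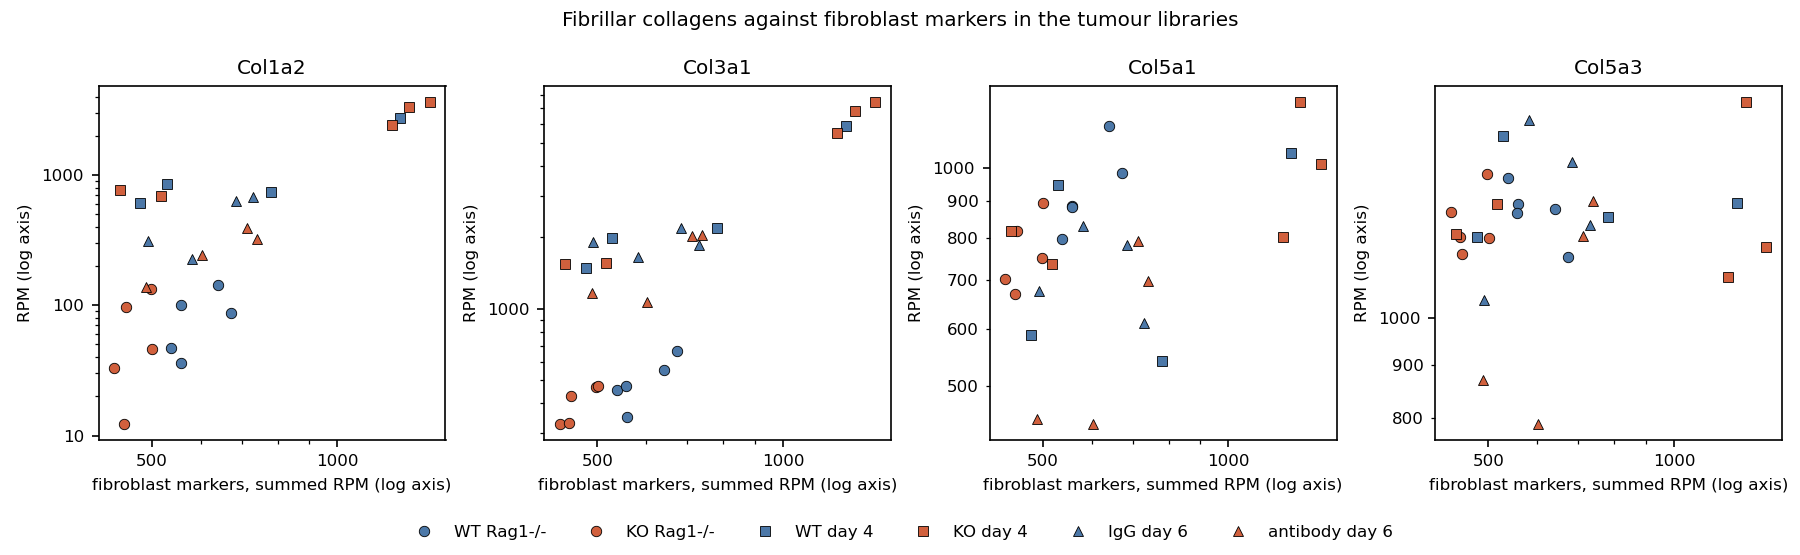
RPM of 4 fibrillar collagen genes against the summed RPM of 10 fibroblast markers in 27 tumour libraries, both on log axes, with symbols for the host and day and colours for the group. The 4 day 4 tumours with 1225 RPM of markers or more have the highest Col1a2 and Col3a1, while Col5a3 lies between 791 and 1612 RPM across the whole range of markers.

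The 8 genes most like the mean profile of the 6 collagens, among 12351 candidates with a median r of 0.09, were Slit3 (r = 0.89), Fbn1 (0.86), Creb3l1 (0.86), Thbs2 (0.86), Antxr1 (0.86), Sema5a (0.85), Nfatc4 (0.85) and Gpr153 (0.83), all over 27 libraries. Fbn1 encodes fibrillin-1 of elastic microfibrils, and Thbs2 a matricellular glycoprotein that affects fibril assembly. Creb3l1 encodes a transcription factor of the endoplasmic reticulum and Antxr1 a collagen-binding receptor. Slit3 held an r of 0.96, 0.94 and 0.75 within the 3 tumour tables, whereas Gpr153 had 0.88, 0.97 and 0.34.

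Genes that make, process and bind fibrillar collagen changed in both directions in Rag1-/- hosts, where limma called 11.3% of all genes as higher and 11.4% as lower. The lists were not tested as sets, and nothing particular to them is read from their counts. Of 17 measured genes of folding and hydroxylation, 4 rose and 4 fell. Fkbp14, a prolyl isomerase of the endoplasmic reticulum, rose by 1.19 on the log2 scale (from 83.9 ± 9.29 to 192 ± 12.4 normalized counts, SD, n = 5 each, limma adjusted p = 1.08e-05). Fkbp10, another prolyl isomerase, rose by 0.18 and P4hb, the beta subunit of prolyl 4-hydroxylase, by 0.19 (limma adjusted p = 0.00817 and 0.00911). P3h3, of the prolyl 3-hydroxylase family, fell by 0.46 (adjusted p = 0.00214), Plod3, a lysyl hydroxylase, by 0.17 (adjusted p = 0.0139) and Colgalt1, a collagen galactosyltransferase, by 0.15 (adjusted p = 0.0250). The list's median was -0.05 beside -0.003 over all genes.

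Enzymes and helpers of propeptide removal split likewise, with 2 of 7 higher and 2 lower (median 0.09). Adamts14, an N-propeptidase, rose by 0.31 and Pcolce2, a procollagen C-proteinase enhancer, by 0.73 (limma adjusted p = 0.000603 and 0.000630). Bmp1, the C-propeptidase, fell by 0.19 and Pcolce, the other enhancer, by 0.35 (adjusted p = 0.00503 and 0.00598). Of 14 genes of cross-linking and fibril assembly, 1 rose and 2 fell, near the 22.7% called over all genes, with a median of -0.28. Dpt, which encodes dermatopontin and is also among the fibroblast markers, fell by 1.10, from 5212 ± 1063 to 2403 ± 355 normalized counts (SD, n = 5 each, limma adjusted p = 0.000128). Thbs2 fell by 0.83 (adjusted p = 0.00440), and Loxl4, a lysyl oxidase relative, rose by 0.21 (adjusted p = 0.0228).

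Among 8 measured receptors and uptake genes, 2 rose and 2 fell, 1 of them the targeted gene (median 0.08). Itga1 and Itgb1, subunits of a collagen-binding integrin, rose by 0.43 and 0.17 (limma adjusted p = 0.00721 and 0.0391), while Itga10 fell by 0.39 (adjusted p = 0.0303) and Ddr1, the targeted gene, by 2.34 (adjusted p = 3.88e-11). Of 6 collagen-degrading proteases, 1 rose, a share near that of all genes (median 0.18): Mmp13, an interstitial collagenase, at 0.91 (adjusted p = 1.62e-05). Of 8 TGF-beta pathway genes, 3 rose and 1 fell (median -0.09). Tgfbr2, Tgfb2 and Tgfbr1 rose by 0.45, 0.96 and 0.31 (limma adjusted p = 0.00120, 0.00167 and 0.00296) and Tgfb3 fell by 0.18 (adjusted p = 0.0286). None of the 3 measured genes among Col2a1, Col11a2, Col24a1 and Col27a1, the other fibrillar collagens, passed (median 0.19).

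In the other tables the lists held almost no calls. In culture and at day 4 the only listed gene called was Ddr1, which fell by 3.03 and 2.23 (limma adjusted p = 0.00409 and 0.00366). Without the 4 day 4 tumours high in fibroblast markers, Ddr1 differed by -1.99 there with an adjusted p of 0.170 in limma. At day 6 none of the listed genes was called. The median of the 15 cross-linking and fibril assembly genes was 0.45 at day 4 and -0.26 at day 6, beside 0.003 and -0.01 over all genes.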

How the data were processed

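RNA-seq of 32 libraries in 8 groups was analysed, grouped by titles and characteristics. Per the labels' protocols, libraries were made with an Illumina TruSeq stranded mRNA kit. The submitters' processing notes name CASAVA, TopHat, DESeq2 and build mm10. Which tool counted reads, and with what strand setting, is not given in the sources used here. The authors deposited 4 tables of normalized read counts, a signal-type value per gene and library, and their adjusted p-values. A further 22 deposited columns of means, folds and unadjusted p-values were not used. The deposited values were whole multiples of a step in each library, and division by it gave whole reads within 0.01 for 100% of values. These reads gave depth (culture 29270919 to 37425032, Rag1-/- hosts 18967300 to 25516204, day 4 20148955 to 28600639, day 6 20220028 to 39732635) and RPM. RPM per kb used the principal transcript of GENCODE M21.

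Tests stayed within a table, since each was normalized separately. The test was limma 3.58.1 (R 4.3.3), with its variance trend, of log2(normalized count + 1) in genes whose mean reached 10. Benjamini-Hochberg adjustment was over all genes tested, called means an adjusted p under 0.05, and p-values are two-sided. This scale understates changes of low genes. Effects in different tables were compared from limma's estimates and standard errors, with Welch-Satterthwaite degrees of freedom. Ratios were tested by exact permutation over libraries. A planned ratio of Col1a2 to Col1a1 in culture could not be computed.

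The collagen genes, the gene lists and the tests were chosen with earlier results of these data known. Named genes were the 7 collagens, Ddr1, the 8 genes of most similar profile, and up to 3 called genes of smallest p per list and direction. Alternatives were other pseudocounts (0.5 and 5), filters, rescalings, limma without trend, count models of the recovered reads (DESeq2 1.42.0, edgeR 4.0.16), a block for the replicate number, and omission of each library. The tests were tried on simulated counts. Of 100 genes changed by 1 on the log2 scale, limma recovered 69% in culture (11911 genes), 99% in Rag1-/- hosts (12795), 54% at day 4 (14105) and 44% at day 6 (14155).

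Python 3.11.15, pandas 2.3.3 and matplotlib 3.10.9 were used.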

Additional observations from a re-analysis of the deposited data

How the results depend on the processing

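No fibrillar collagen gene was called at day 4 or day 6 under any alternative, including each library left out (0 to 0). In culture the count called was 0, with 1 under DESeq2, and 0 to 3 when libraries were left out in turn. In Rag1-/- hosts it was 1, with 0 after quantile normalization and 0 without limma's trend, and 0 to 2 when tumours were left out. The count for the difference of effects between Rag1-/- hosts and culture was 0, and 2 without wild-type culture library 1 (with 954 in place of 84 over all genes), and the difference for Col5a1 then turned to 0.00502. That omission and those by marker level below were chosen after seeing the data.

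Some differences that had not passed the test changed sign, and the cause was not tested. At day 4 without the 4 tumours highest in fibroblast markers, Col1a2 was at -0.0115, Col3a1 at -0.27 and Col5a2 at -0.39, and the difference between hosts was 0.0568 for Col1a1 and 0.0931 for Col5a2. Those tumours were also the highest in the genes named, and most were knockout. Quantile normalization at day 4 gave 0.00429 for Col5a3 and -0.00134 for Col11a1, and -0.00569 for the difference between hosts of Col5a3. At day 6 the 2 tumours highest in adipocyte markers were also the lowest in Col3a1 and Col5a1. Without them Col3a1 was at 0.0788, Col5a1 at 0.0191, and the log2 ratios to Col1a1 at 0.0923 for Col3a1 and 0.0327 for Col5a1. With each day 6 tumour left out, those ratios ran from -0.24 to 0.0145 and from -0.17 to 0.0465, and Col11a1 from -0.63 to 0.51, with 0.96 without the 2 tumours highest in skeletal muscle markers. Col11a1, Col1a2 and Col5a2 had at most 4 reads in any culture library, below the minimum for the test there.

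Deviations of same-numbered libraries correlated between -0.20 and 0.45. They were not set against differently numbered libraries, so pairing by replicate number was neither shown nor excluded. With the number as a block, Col5a1 in Rag1-/- hosts had an adjusted p of 0.0279 in limma, and calls over all genes were 2411 in place of 2904 there, 2 in place of 5 at day 4 and 0 at day 6, with a block in each. The culture libraries carry no shared numbers. Calls over all genes in culture were 39, with 12 without trend, 25 by edgeR, 1055 by DESeq2 and 2 to 1655 when libraries were left out. At day 4 they were 5, with 9 without a filter, 689 by DESeq2 and 3 to 50 when tumours were left out, the 50 without knockout tumour 5. At day 6 DESeq2 called 166 in place of 0, and limma 5 without antibody tumour 1.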
